A study of Homo sapiens with 6 samples.

Results

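Proximal tubule cells of the kidney carry a brush border, a carpet of microvilli that faces the filtered urine. Peptidases anchored in this membrane trim filtered peptides, and large endocytic receptors retrieve filtered proteins. The 10 genes described here encode such peptidases and receptors and a pair of other proteins of tubule cells, and were chosen by symbol from a table of 54261 gene symbols. MME, ENPEP, ANPEP and DPP4 encode peptidases and GGT1 an enzyme that opens glutathione. LRP2, CUBN and AMN encode the receptor megalin, its partner cubilin and the anchor of cubilin. HAVCR1 encodes a phosphatidylserine receptor of injured tubule cells, and AGTRAP encodes a protein that binds the type 1 angiotensin receptor and favours its internalisation. All 10 symbols were found, 8 passed the filter on low counts and were tested, and LRP2 and AMN were not.

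The measurements come from 786-O, an established human cell line of clear cell renal carcinoma, a tumour thought to arise from proximal tubule epithelium. RNA-seq was run on 3 control libraries, from PHF8 wild-type cells given control guide RNA, and on 3 knockout libraries, from cells given guide RNA against PHF8 with CRISPR-Cas9. PHF8 is a histone demethylase that removes repressive methyl marks, and its PHD finger binds a histone mark of active promoters. The comparison asks which transcripts differ between the knockout and control cells. The labels leave unstated if the edited cells are clonal or pooled and if each library had its own culture, so p-values reflect only the spread between libraries, and that spread may be technical.

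PHF8 itself had 833, 876 and 881 reads in control libraries 1, 2 and 3 and 259, 167 and 348 in the knockout libraries, so every knockout library lay below every control library. Libraries held 21533615 to 29095133 counted reads. Knockout library 2 stood apart from the other two of its group, with a chi-square per degree of freedom of 74.3 and 57.5 against them, while libraries 1 and 3 differed by 11.1. Of the 14398 tested genes, 59.7% passed an adjusted p of 0.05 (edgeR quasi-likelihood test, Benjamini-Hochberg adjustment), 28.9% higher and 30.8% lower in knockout cells. A call with a fold of over 2 was made for 9.2% of them in the higher and 14.2% in the lower direction, and the groups did not overlap in 66.8% (32.6% higher, 34.2% lower). With library totals as the only scaling, the median log2 fold change of all tested genes moved from -0.01 to -0.18, and the calls from 4158 higher and 4435 lower to 3153 higher and 5441 lower.

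Among the 8 tested genes of the 10, 3 rose in knockout cells (GGT1, ENPEP and DPP4), 3 fell (AGTRAP, MME and HAVCR1) and 2 did not pass the test (ANPEP and CUBN). The 6 genes called were those whose groups did not overlap, and 3 of them passed a fold of 2, GGT1 higher and AGTRAP and MME lower. Against 28.9% of all tested genes called higher and 30.8% called lower, 32.6% and 34.2% without overlap, and 9.2% and 14.2% past a fold of 2, these counts are not far from the background, so the number called does not set the group apart. Their median log2 fold change was -0.37, against -0.01 for all tested genes, and -0.07 against 0.01 once trends with GC content and transcript length were taken out by an offset. With library totals only it was -0.53, against -0.18. The members differed in size of change: 0.285% of tested genes had a log2 fold change as low as that of AGTRAP, 1.44% one as low as that of MME, and 4.1% one as high as that of GGT1. In bulk RNA, fewer cells that express a gene and less RNA per cell cannot be told apart.

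**Figure D1:**
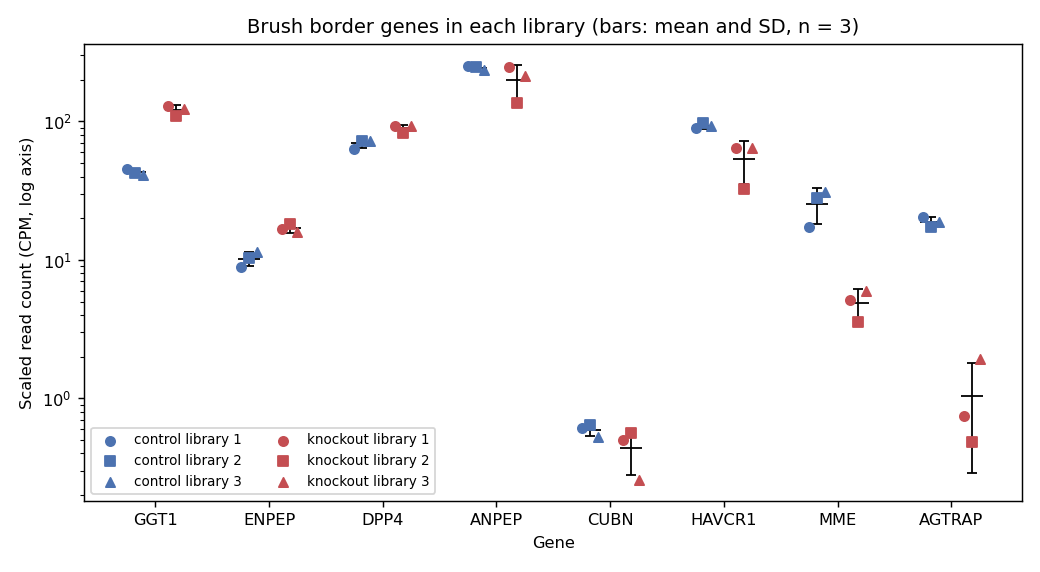
Scaled read counts (CPM, read counts scaled by the TMM-adjusted library size, log axis) of the 8 tested genes in each library, control in blue and knockout in red, with bars for the mean and SD of 3 libraries. GGT1, ENPEP and DPP4 lie higher in all 3 knockout libraries, HAVCR1, MME and AGTRAP lower, and the groups overlap in ANPEP and CUBN.

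MME (chromosome 3, 155024124 to 155183704, GRCh38) encodes neprilysin, a zinc endopeptidase that cleaves natriuretic peptides, kinins and angiotensins. Its level was 17.3, 28.2 and 31.1 CPM in control libraries 1, 2 and 3 and 5.16, 3.55 and 5.95 CPM in knockout libraries 1, 2 and 3. The groups did not overlap, and control library 1 was the low one of its group. The mean went from 25.5 ± 7.26 to 4.89 ± 1.22 CPM (SD, n = 3 each), a log2 fold change of -2.38 (SE 0.26, 95% interval -2.96 to -1.80; edgeR adjusted p = 8.34e-05), or 5.22-fold lower. An offset that removes the trends of counts with transcript length and GC content brought the log2 fold change of MME to -1.51 (adjusted p = 7.73e-05, with 1.06e-21 to 5.63e-04 over all alternatives). Its transcript is long, at 5656 bases, and has 38.5% GC.

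ENPEP (chromosome 4, 110365733 to 110565285) encodes aminopeptidase A, which takes the first acidic residue from angiotensin II. It had 204, 256 and 304 control reads and 399, 453 and 430 knockout reads, or 8.95, 10.2 and 11.4 CPM against 16.6, 18.3 and 15.8 CPM. All 3 knockout libraries lay above all 3 control libraries. The gene was 1.66-fold higher in knockout cells (log2 fold change 0.73, SE 0.14; edgeR adjusted p = 0.00164). The log2 fold change was 1.71 with the length and GC offset.

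ANPEP (chromosome 15, 89784895 to 89815401) encodes aminopeptidase N, which removes neutral residues and belongs to the same zinc aminopeptidase family as ENPEP. Control libraries held 253, 246 and 234 CPM, and knockout libraries 1, 2 and 3 held 249, 135 and 212 CPM. Knockout library 2 was low and knockout library 1 lay within the control range. The log2 fold change was -0.30 (SE 0.19, 95% interval -0.72 to 0.13; edgeR adjusted p = 0.199), an interval that holds both a fall and a small rise. Without knockout library 2 it was -0.08, without knockout library 1 it was -0.49 and passed the threshold (adjusted p = 0.0436), and with the length and GC offset it was -0.50 and passed (adjusted p = 0.00765, with 0.00765 to 0.389 over all alternatives). The reads of ENPEP were 3.54%, 4.17% and 4.85% of those of ANPEP in control libraries 1, 2 and 3 and 6.67%, 13.5% and 7.46% in knockout libraries 1, 2 and 3. Since both counts come from 1 library, this ratio does not depend on how libraries are scaled, and it was higher in every knockout library. The ratio is still open to trends with transcript length and GC content, in which the genes differ. ENPEP has 6861 bases and 38.9% GC, and ANPEP 3662 bases and 58.4% GC.

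DPP4 (chromosome 2, 161992245 to 162074394) encodes a serine peptidase that removes dipeptides from incretins and chemokines. It lay at 63.5, 72.8 and 72.1 CPM in control libraries and at 92.2, 83.1 and 92.8 CPM in knockout libraries. The groups did not overlap, though the distance between the highest control and the lowest knockout library was small. The gene was 1.29-fold higher in knockout cells (log2 fold change 0.36, SE 0.10; edgeR adjusted p = 0.0119). The call was lost with library totals as the only scaling (log2 fold change 0.19, adjusted p = 0.120, with 4.40e-05 to 0.120 over all alternatives), and the log2 fold change was 0.77 with the length and GC offset.

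GGT1 (chromosome 22, 24594811 to 24629005) encodes gamma-glutamyltransferase, which takes the glutamyl group off extracellular glutathione and so starts its recycling. It had 45.4, 42.2 and 41.1 CPM in the control libraries and 130, 110 and 122 CPM in the knockout libraries. Every knockout library held more than 2 times the level of any control library. The mean rose from 42.9 ± 2.22 to 121 ± 10.1 CPM (SD, n = 3 each), which is 2.82-fold (95% interval of the log2 fold change 1.26 to 1.73, SE 0.10; edgeR adjusted p = 1.28e-05). GGT1 has near-identical copies whose reads may be shared with it. GGT2, GGT3P, GGT4P, GGTLC1, GGTLC2, GGTLC4P and GGTLC5P had 25 reads or fewer in any library, and GGT8P had 27 to 72, at most 4.93% of the GGT1 count.

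**Figure D2:**
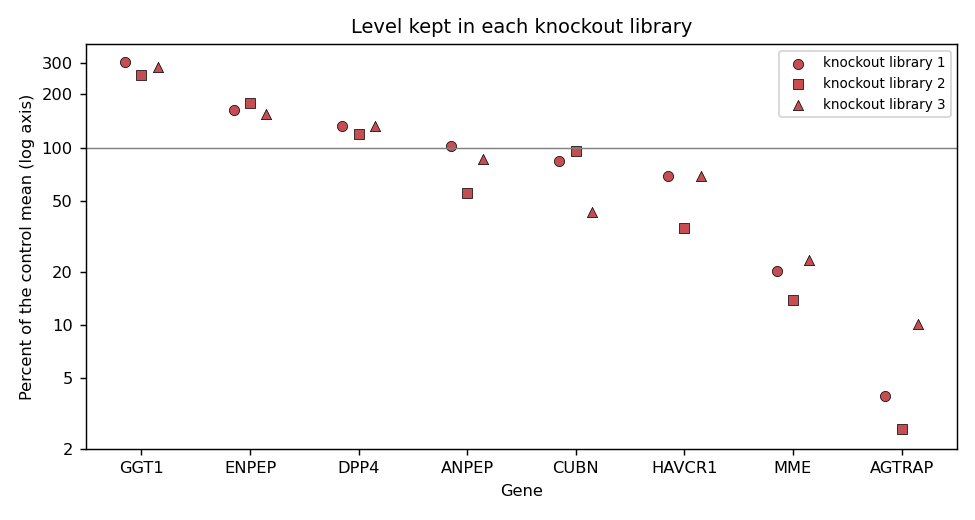
Level of each tested gene in knockout libraries 1, 2 and 3 as a percent of the mean of the 3 control libraries (log axis, line at 100%). AGTRAP kept 3.99%, 2.58% and 10.2%, MME 20.2%, 13.9% and 23.3%, and HAVCR1 69.1%, 35.2% and 69.5%. GGT1 reached 304%, 257% and 285%.

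The endocytic receptor genes were at or near 0. LRP2 (chromosome 2, 169127109 to 169362534) had 0 reads in all 6 libraries, and with a floor of 3 reads over the 70349537 reads of the control group and the 80648498 reads of the knockout group its level was at most 0.0426 and 0.0372 CPM by library totals. AMN (chromosome 14, 102922663 to 102933596) had 1 read in control library 3, 1 read in knockout library 1 and 0 reads in the others. It overlaps CDC42BPB on the opposite strand, which had 2126 to 5611 reads per library. The strand setting of the counting is not stated, and its effect on the AMN count was not tested. CUBN (chromosome 10, 16823966 to 17129811) had 14, 16 and 14 reads in control and 12, 14 and 7 in knockout libraries. Its groups overlapped, with knockout library 3 the low one. The log2 fold change of CUBN was -0.43 (SE 0.36, 95% interval -1.25 to 0.39; edgeR adjusted p = 0.328) and changed sign, to 0.37, with the length and GC offset. Floors and counting limits cover counting error only. For LRP2 and AMN a difference was not detectable at this depth.

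HAVCR1 (chromosome 5, 157026742 to 157069396) encodes kidney injury molecule 1, which lets tubule cells engulf dying neighbours and is shed into urine. Its levels were 89.3, 97.9 and 91.9 CPM in control libraries 1, 2 and 3 and 64.3, 32.8 and 64.6 CPM in knockout libraries 1, 2 and 3. All knockout libraries lay below all control libraries, with knockout library 2 the lowest. The gene was 1.73-fold lower in knockout cells (log2 fold change -0.79, SE 0.22; edgeR adjusted p = 0.0134). Without knockout library 2 the log2 fold change was -0.53 with an SE of 0.07 (adjusted p = 1.87e-04, with 4.78e-07 to 0.0382 over all alternatives). Its neighbours on the chromosome are relatives of the same TIM family, and neither passed the test: TIMD4 lay at 0.34 on the log2 scale (SE 0.20; -0.10 under the length and GC offset) and HAVCR2 at 0.21 (SE 0.40).

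AGTRAP (chromosome 1, 11736084 to 11754802) had 466, 432 and 500 reads in control libraries 1, 2 and 3 and 18, 12 and 52 reads in knockout libraries 1, 2 and 3. The knockout libraries all lay far below the control libraries, and knockout library 3 was the high one. The mean fell 17.6-fold, from 18.8 ± 1.58 to 1.05 ± 0.76 CPM (SD, n = 3 each). Its log2 fold change was -4.13 (SE 0.36; edgeR adjusted p = 3.49e-05). Without knockout library 3 the log2 fold change was -4.92, so the size of the fall rests in part on that library. The tested protein-coding gene MAD2L2, 44.3 kb away, lay at 69.9 and 79.3 CPM in control and knockout cells and did not pass (log2 fold change 0.18, edgeR adjusted p = 0.144). Under the length and GC offset MAD2L2 was lower and passed (log2 fold change -0.52, edgeR adjusted p = 1.75e-04, with 1.75e-04 to 0.909 over all alternatives).

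**Figure D3:**
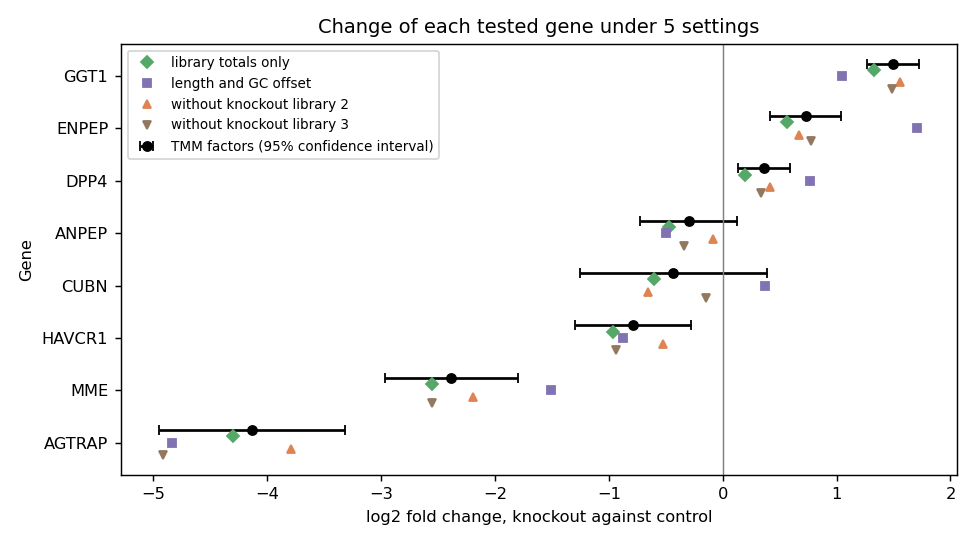
Log2 fold change of each tested gene, knockout against control, with TMM factors (black, with the 95% confidence interval) and under 4 other settings. The sign changes only for CUBN, which lies at 0.37 with the length and GC offset and at -0.43 without it. DPP4 lies at 0.19 with library totals only, and AGTRAP at -4.92 without knockout library 3.

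CpG counts at the promoters overlapped between the genes that rose and those that fell. CpG dinucleotides are shown because active promoters rich in them usually carry the histone mark that PHF8 binds. In windows from 250 bases before to 50 after the RefSeq gene starts (GRCh38.p14), of which 35114 had a median of 14 CpG dinucleotides, AGTRAP had 31 and HAVCR1 had 3. The MME starts had 19, 30, 27 and 19. Of the genes that rose, DPP4 had 34, ENPEP 12 and GGT1 11 and 8 at its 2 starts. These RefSeq starts do not all match the gene coordinates given above. The GGT1 window with 11 (24583500 to 24583799) lies outside that gene. The other GGT1 window and those of MME, ENPEP and HAVCR1 lie wholly inside their genes. The 250 bases before the start are printed for the 2 lower genes that differ most, 5′ to 3′ on the strand of the gene, with CpG dinucleotides in capitals. AGTRAP is at chr1:11735886-11736135, plus strand, and HAVCR1 at chr5:157059117-157059366, minus strand.
AGTRAP: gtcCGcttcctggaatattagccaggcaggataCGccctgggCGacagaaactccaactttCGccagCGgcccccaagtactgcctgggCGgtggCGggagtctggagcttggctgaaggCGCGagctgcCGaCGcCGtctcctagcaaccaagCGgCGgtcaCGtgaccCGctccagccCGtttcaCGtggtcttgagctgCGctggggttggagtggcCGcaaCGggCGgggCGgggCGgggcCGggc
HAVCR1: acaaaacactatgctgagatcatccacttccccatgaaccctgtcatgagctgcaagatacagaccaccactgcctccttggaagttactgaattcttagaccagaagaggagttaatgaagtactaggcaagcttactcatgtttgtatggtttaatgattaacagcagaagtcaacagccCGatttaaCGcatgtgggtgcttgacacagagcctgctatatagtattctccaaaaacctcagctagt
The E-box letters CACGTG, which read the same on both strands, occurred 2 times in the AGTRAP window, and 0.664% of all windows held them at least 2 times. They occurred 1 time in the windows of DPP4, which rose, and AMN, and 0 times in those of MME and HAVCR1, which fell. A match of letters is a description and does not show that a factor binds, and the counts do not show which start the cells used.

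Per kilobase of transcript, the order of levels differed between the groups. In control cells ANPEP stood at 66.7 ± 2.59 CPM per kb and HAVCR1 at 57.3 ± 2.71 (SD, n = 3). DPP4 (19.4 ± 1.44), AGTRAP (16.6 ± 1.40) and GGT1 (16.3 ± 0.84) followed, and AGTRAP overlapped with both of its neighbours in this order. MME (4.52 ± 1.28), ENPEP (1.48 ± 0.18) and CUBN (0.0497 ± 0.0052) came last. In knockout cells GGT1, at 46.0 ± 3.84 CPM per kb, overlapped with ANPEP at 54.3 ± 15.8 and lay above HAVCR1 at 33.2 ± 11.3, which overlapped with DPP4. ENPEP (2.46 ± 0.18) then lay above AGTRAP (0.93 ± 0.67) and MME (0.86 ± 0.22), which overlapped.

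Relatives of the peptidases in the same enzyme families held calls in both directions, as did all tested genes (28.9% higher and 30.8% lower). These shares are the background for the list counts here and below, which were not tested against them. Of 26 listed relatives 14 were tested, of which 2 rose, 6 fell and 6 did not pass (median log2 fold change 0.10, and -0.07 by library totals only); under the length and GC offset 6 were higher and 2 lower, and without knockout library 2 there were 7 higher. ECE2, a neprilysin relative that processes neuropeptides, rose 3.70-fold to 30.5 ± 4.15 CPM (SD, n = 3; SE of the log2 fold change 0.17; edgeR adjusted p = 3.78e-05), the direction opposite to that of MME. ECE1, which activates endothelin, did not pass (log2 fold change 0.36, SE 0.15), but did with the length and GC offset, with no filter and without knockout library 2. MME reads were 3.94%, 6.52% and 7.64% of those of ECE1 in control libraries 1, 2 and 3 and 0.78%, 0.86% and 1.06% in knockout libraries 1, 2 and 3. Among aminopeptidases of the ANPEP and ENPEP family, NPEPPS fell 1.77-fold and RNPEPL1 rose 1.82-fold. Of 10 other brush border peptidases 8 were too low to test, among them ACE, MEP1A and MEP1B with 0 to 7 reads in any library. The angiotensin-cleaving PRCP rose 1.36-fold, and CPM, carboxypeptidase M, was 1.68-fold lower with 17 to 37 reads per library, a call lost with DESeq2, with the length and GC offset (log2 fold change 0.08), with the replicate number as a block, and without control library 2 or 3 or knockout library 2 or 3.

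Genes of angiotensin metabolism were measured without their main receptor. AGTR1, the receptor that AGTRAP binds, had 1 read in control library 1, 1 in knockout library 2 and 0 in the others. AGTR2 and MAS1 had 0 reads in every library. Of 14 listed genes 7 were tested, of which 4 rose and 2 fell (median log2 fold change 0.30). Under the length and GC offset 4 were higher and 0 lower. The shares of all tested genes were 28.9% higher and 30.8% lower without the offset. AGT, the precursor angiotensinogen, had 16, 7 and 14 reads in control and 44, 28 and 37 in knockout libraries and was 2.87-fold higher (log2 fold change 1.52, SE 0.36; edgeR adjusted p = 0.00504). CTSA, a lysosomal carboxypeptidase, was 1.62-fold higher, and the peptidases NLN and LNPEP were 2.17-fold and 2.95-fold lower. These 3 calls were lost with the length and GC offset, at log2 fold changes of 0.14 (CTSA), -0.13 (NLN) and -0.34 (LNPEP).

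**Figure D4:**
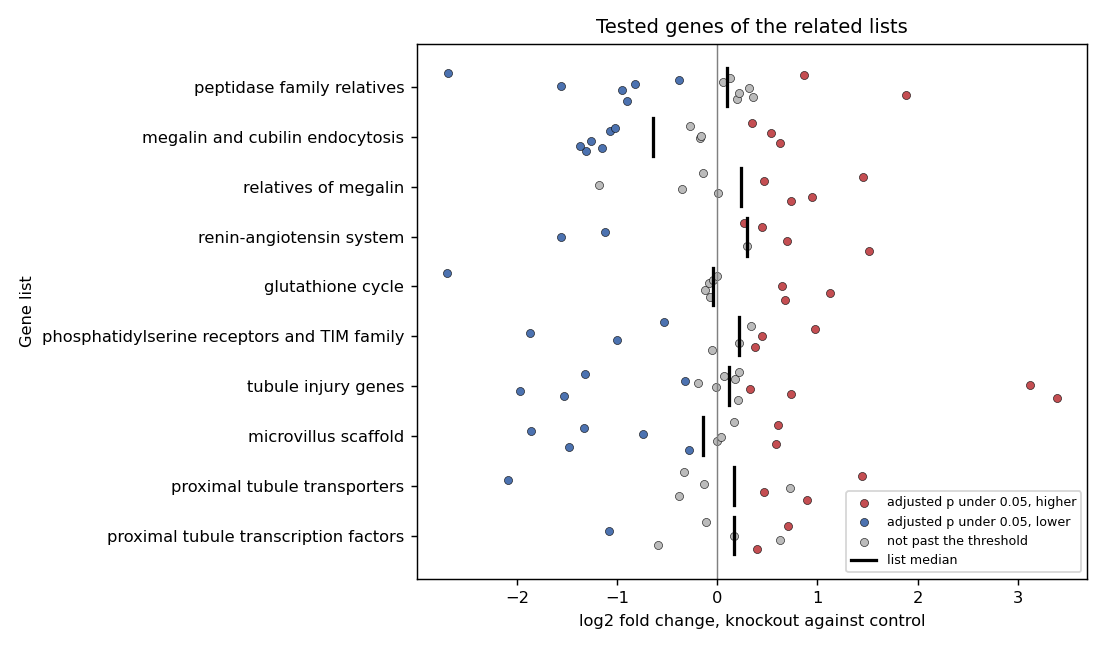
Log2 fold change, knockout against control, of each tested gene in 10 related lists, with genes past an adjusted p of 0.05 in red (higher) or blue (lower), others in grey, and the list median as a black line. Each list holds genes on both sides of 0, and the lowest median is that of the megalin and cubilin endocytosis list, at -0.64.

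The endocytic machinery that serves megalin and cubilin was present although the receptors were at or near 0. All 12 listed genes were tested, of which 6 fell and 3 rose (median log2 fold change -0.64, and -0.30 with the length and GC offset, with the same numbers called). With library totals only 9 fell and 2 rose. Of all tested genes 28.9% were called higher and 30.8% lower with TMM factors. DAB2, the adaptor that links megalin to clathrin, fell 2.59-fold to 26.9 ± 5.00 CPM (SD, n = 3; SE of the log2 fold change 0.14; edgeR adjusted p = 6.89e-05). FNBP1L, a membrane-bending protein, fell 2.40-fold and APPL1, an endosome adaptor, 2.47-fold. LRPAP1, the chaperone of megalin and its relatives, rose 1.45-fold (log2 fold change 0.54). Of 8 tested relatives of megalin in its receptor family, 4 rose and 0 fell (median 0.23), against the same 28.9% and 30.8%. Under the length and GC offset 6 were higher and 1 lower (median 0.81), and by library totals only 3 were higher and 3 lower. There were 2 lower with no filter, with the replicate number as a block and without knockout library 2, and 1 without control library 1 or knockout library 1. SORL1 rose 2.75-fold and LRP8 1.38-fold.

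Genes that share glutathione turnover with GGT1 held calls in both directions, as did all tested genes (28.9% higher and 30.8% lower). Of 9 tested, 3 rose and 1 fell (median log2 fold change -0.05). The balance turned to 2 higher and 3 lower under the length and GC offset, and 2 were lower with library totals only or without knockout library 2. CNDP2, a dipeptidase that can split the cysteinylglycine left after GGT1 has acted, rose 2.18-fold to 495 ± 51.5 CPM (SD, n = 3; SE of the log2 fold change 0.10; edgeR adjusted p = 3.78e-05). GCLM, the modifier subunit of the enzyme that starts glutathione synthesis, rose 1.57-fold, and OPLAH, which opens oxoproline, fell 6.47-fold from 54, 35 and 58 reads in control to 9, 1 and 13 in knockout libraries. DPEP1, the brush border dipeptidase of the same step, had 1 to 8 reads per library.

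Among other receptors of phosphatidylserine, the ligand of HAVCR1, and the proteins that bridge to them, 3 of 9 tested genes rose and 3 fell (median log2 fold change 0.21). Under the length and GC offset 2 were higher and 1 lower, with a median of 0.0038. The bridging protein gene MFGE8 rose 1.97-fold and the receptor kinase gene MERTK fell 3.67-fold, from 93, 82 and 138 reads in control to 32, 8 and 47 in knockout libraries. ITGAV was 2.00-fold lower, but at 0.02 (log2) under the offset and then not called. Of 14 tested genes of tubule injury 4 rose and 4 fell (median 0.12), and under the offset 5 and 6 (median -0.16). Of all tested genes 28.9% were called higher and 30.8% lower, so the main counts do not set either list apart. CLU, the chaperone clusterin, rose 10.5-fold, to 226 ± 5.87 from 21.5 ± 2.72 CPM (SE of the log2 fold change 0.12; edgeR adjusted p = 5.92e-07), whereas VCAM1 fell 2.49-fold and CTGF 2.89-fold.

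Most listed proximal tubule transporter and enzyme genes were too low to test, while most listed microvillus scaffold and transcription factor genes were tested. In the microvillus scaffold list 8 of 18 genes were too low to test, and VIL1, USH1C and CDHR5, which encode villin and parts of the link between microvillus tips, had 0 reads in every library. Of the 10 tested, 2 rose and 5 fell (median log2 fold change -0.14), and 1 and 7 with the offset. Of all tested genes 28.9% were called higher and 30.8% lower without the offset. EPS8, PLS1 and RDX, which bundle or anchor actin, were 2.79-fold, 3.62-fold and 2.52-fold lower. EZR, which encodes ezrin, did not pass, with a 95% interval of the log2 fold change from -0.21 to 0.20, its sign changing with the scaling and its level called lower (log2 fold change -0.17) under the length and GC offset. Of 24 proximal tubule transporter genes 16 were too low to test, and 7 of these had 0 reads in every library. Of the 8 tested, 3 rose and 1 fell (2 and 1 by library totals only), against the same 28.9% and 30.8%. SLC4A4, a bicarbonate transporter of the opposite membrane, fell 4.27-fold and SLC7A7 and ABCC2 rose 2.73-fold and 1.86-fold. Of 16 proximal tubule enzyme genes 12 were too low, and of the 4 tested 2 rose (AGXT2 and CYP27B1) and 1 fell (MIOX). The whole list summed to 5.76 to 7.28 CPM in control and 10.2 to 11.8 CPM in knockout libraries, so these calls rest on low levels. The MIOX call was lost without control library 1 or 3 or knockout library 1 or 2. Of 10 proximal tubule transcription factors 7 were tested, of which 2 rose and 1 fell (1 and 2 by library totals only). PAX8, a marker of renal epithelium and its tumours, rose from 223 ± 11.0 to 363 ± 43.0 CPM and PAX2 fell 2.12-fold. HNF4A had 1 read in control library 2 and 0 elsewhere. The label describes what these genes encode in kidney, and in these cells the receptors megalin and amnionless and the scaffold protein villin were at or near 0.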

How the data were processed

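RNA was measured by sequencing in 3 control and 3 PHF8-guide libraries of 786-O cells. Per the labels' design text, the authors filtered reads, mapped them to GRCh38 (NCBI) with HISAT2 (version 2.0.4 in the submitters' processing notes) and counted them per gene with HTSeq. For HTSeq, its version, strand setting and annotation are not stated in the labels. Values were deposited as raw counts, whole numbers with no normalization, for each symbol.

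Counts were tested with edgeR 4.0.16 (R 4.3.3) by its quasi-likelihood test of knockout against control, with TMM factors, filterByExpr and Benjamini-Hochberg adjustment over all 14398 tested genes. Standard errors (SE) were derived from the F statistic. Coordinates, and transcript length for levels per kilobase, come from GENCODE release 44 (GRCh38), and promoter sequences from RefSeq (GRCh38.p14), where all 10 symbols matched. Of the tested genes 92.4% had a length and GC content. The offset for both removed lowess trends (span 0.3) per library. A floor of 3 reads stands for 0. Alternatives used DESeq2 1.42.0 and limma 3.58.1. Named genes were all 10 members, PHF8, up to 3 called genes with the smallest p per list, and the nearest tested protein-coding genes; some genes under this rule are not reported here, and others named beside them were chosen after their values were seen. The members and lists were chosen with earlier results of these data known. The fit was also run on simulated data in which only a small share of genes changed. That run does not cover scaling where most genes are called, as here.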

Additional observations from a re-analysis of the deposited data

How the results depend on the processing

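Over 16 alternatives, 8 tested genes gave 127 values, of which 122 kept their direction and their side of the threshold. CUBN changed sign with the length and GC offset (0.37 on the log2 scale), DPP4 lost its call with library totals only, and ANPEP gained one with the offset, with no filter (adjusted p = 0.0337, with 0.00765 to 0.389 over all alternatives) and without knockout library 1. CUBN gave no value with the filter of over 1 CPM. The number of all genes called ran from 7170 to 9542 when 1 library was left out. With the offset, 5649 of the 8593 calls were made in the same direction, 433 in the opposite one and 2511 not at all. With the replicate number as a block 8308 genes were called, and no call among the 8 genes changed. Same-numbered libraries deviated from their group means with correlations of 0.02, -0.04 and 0.01, and not every library correlated best with its own number, so the numbers do not show a pairing. LRP2 and AMN had too few reads to test at this depth.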

Other observations

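Markers of other kidney and blood cell types were low in most lists. Of 9 immune markers 6, including PTPRC, CD3E and LYZ, had 0 reads in every library, and the summed level of the list, 43.8 to 48.1 CPM in control and 112 to 122 CPM in knockout libraries, came almost wholly from CD68, a lysosomal membrane protein that was 2.59-fold higher in knockout cells (log2 fold change 1.38; edgeR adjusted p = 1.24e-05). The 7 fibroblast markers summed to 4.60 to 5.08 CPM in control and 1.41 to 2.29 CPM in knockout libraries, with PDGFRB and LUM lower and COL3A1 at 0 reads. The 7 endothelial markers summed to 2.05 to 2.32 and 3.04 to 4.52 CPM, with CDH5 and EMCN at 0 reads and TEK 2.08-fold higher; KDR was also called higher, a call lost with DESeq2, limma-voom or library totals only and without 5 of the 6 libraries in turn (all but knockout library 1). The 6 markers of the loop and distal tubule stayed under 0.75 CPM in sum, and UMOD and SLC12A1 had 0 reads. The 8 collecting duct markers summed to 2.76 to 4.08 and 4.56 to 7.87 CPM, mostly ATP6V0D2, and AQP2 had 0 reads. The 7 podocyte markers summed to 261 to 289 and 196 to 342 CPM, mostly SYNPO, with PODXL 2.76-fold lower and NPHS1 at 0 or 1 read. MME, ANPEP and DPP4 are also expressed by leukocytes and fibroblasts, while the libraries here come from an established cell line. Any part of other cells in the levels above was not tested beyond these markers.

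Genes next to the 10 genes moved with them in some cases and not in others, where 59.7% of all tested genes were called. PLCH1, 192 kb from MME, fell from 10.1 to 1.69 CPM (log2 fold change -2.59). DHX36, 700 kb away on the other side, was also lower (-1.36, and -0.37 with the length and GC offset). Next to ENPEP, which rose, ELOVL6 was lower (-0.47, but 0.38 with the offset). LRRC75B, 1.6 kb from GGT1, lay at 0.58 and did not pass (edgeR adjusted p = 0.0816, with 0.0246 to 0.555 over all alternatives). It passed without control library 1 and lay at -0.17 with the offset. KIAA1671, 324 kb from GGT1 on the other side, was lower (-0.86, a call lost without control library 1 or 3). IFIH1, 193 kb from DPP4, was higher (0.47, a call lost with library totals only and without control library 1 or 3 or knockout library 2).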
